A study of Mus musculus with 6 samples.

Results

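Liver transcripts of 9 phase I enzymes were examined after nitisinone (NTBC) was stopped in Fah-deficient mice: the flavin monooxygenases Fmo1, Fmo2 and Fmo5, the aldehyde oxidases Aox1 and Aox3, the aldehyde dehydrogenases Aldh1a1, Aldh1a7 and Aldh3a2, and the alcohol dehydrogenase Adh4. The genes were chosen from these enzyme families with earlier results of these arrays known, and are not all of their members. They are 9 of 22180 genes that had a probe set with 1 gene symbol. Each is represented by its probe set with the highest mean log2 signal over the 6 arrays. Aldh3a2 alone had a second probe set with 1 gene symbol, and the mean signals of all 9 lay above the median probe set.

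The withdrawal group (3 arrays) came from male FAH5981SB mice that lost NTBC at 11 weeks of age and were without it for 7 days. The continuous group (3 arrays) came from male FAH5981SB mice kept on NTBC at 8 mg/l in drinking water. Both groups had a C57Bl/6J background, were 12 weeks old at sampling, ate a chow low in tyrosine and phenylalanine, and carried the Fah point mutation at the end of exon 8 that yields an unstable, truncated enzyme. No group with intact Fah was analysed here, so both groups lack the last enzyme of tyrosine breakdown, and NTBC acts at an earlier step of that pathway. Dextrose at 3% is listed for the NTBC water, and whether it continued after NTBC was stopped is not given. The labels call the replicates biological but name no animals, and the p-values therefore reflect only how these samples differ, which may be technical.

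Flavin monooxygenases are enzymes of the endoplasmic reticulum that use FAD and NADPH to put oxygen on nitrogen and sulphur atoms of drugs and food compounds. Aldehyde oxidases are cytosolic enzymes with a molybdenum cofactor that oxidise aldehydes and many ring compounds. Aldehyde dehydrogenases turn reactive aldehydes, among them retinaldehyde and fatty aldehydes, into acids with NAD or NADP, and alcohol dehydrogenases interconvert alcohols and aldehydes one step earlier. Hepatocytes make members of all 4 families.

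After withdrawal 6 of the 9 genes were higher (Fmo1, Fmo2, Aox1, Aldh1a1, Aldh1a7 and Aldh3a2), 2 were lower (Aox3 and Adh4), and Fmo5 did not pass. A gene passed at an adjusted p under 0.05 in limma, adjusted by Benjamini-Hochberg over all 34472 probe sets. Of these 9.40% passed, made up of 6.21% higher and 3.20% lower, and with 1 probe set per gene 11.0% passed, made up of 7.58% higher and 3.39% lower. Among probe sets with a mean signal above the median, tested alone, 23.3% passed. The median log2 change of the 9 genes was 0.94, against -0.08 over all probe sets. The genes had been picked with earlier results of these arrays known, so these counts describe them and do not test them as a group. Counts of the family lists below are likewise descriptions, to be read beside the shares given here. The 3 withdrawal arrays lay wholly above or wholly below the 3 continuous arrays for all 9 genes, which was the case for 27.6% of all probe sets (13.9% above and 13.7% below).

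**Figure D1:**
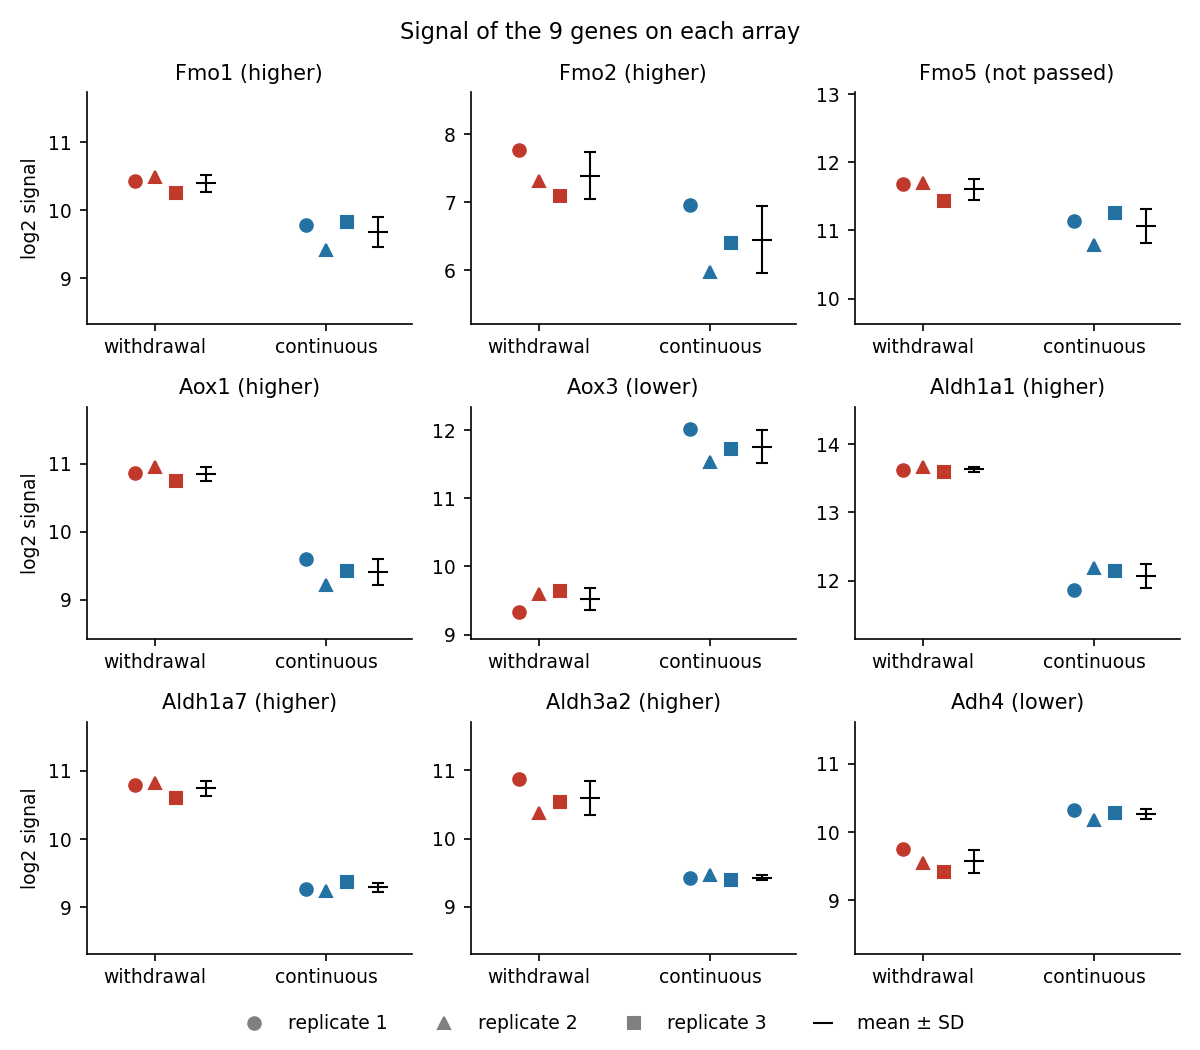
Log2 signal (vertical axis, 3.4 log2 units in every panel) of each of the 9 genes on the 3 withdrawal arrays (red) and the 3 continuous arrays (blue), with the group mean and SD beside the points and the limma call in the panel title. The groups do not overlap in any panel, Aox3 and Adh4 alone lie lower after withdrawal, and the gap is narrowest for Fmo2 at 0.13 and Fmo5 at 0.17.

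Array medians lay between 5.21 and 5.39 in the withdrawal group and between 5.29 and 5.44 in the continuous group, on the log2 scale. No detection flags came with the table, and the signals of the 9 genes, from 5.98 to 13.67, were all above the arrays' lower quartiles (4.03 to 4.26). Of the hepatocyte markers, 8 of the 9 measured exceeded the upper quartile on every array. Their summed intensity was 75011 to 81867 on withdrawal arrays and 82668 to 88662 on continuous arrays, with Cps1 and Ass1 lower among the 9. All 8 sinusoidal endothelial markers were measured, and their summed intensity was 2207 to 2326 on withdrawal arrays and 1410 to 1725 on continuous arrays, with Lyve1 and Clec4g higher. The sums of the 10 measured Kupffer cell and macrophage markers overlapped (1157 to 1699 on withdrawal arrays, 1182 to 1493 on continuous arrays), as did those of the 9 stellate cell and fibroblast markers (1540 to 1878 on withdrawal arrays, 1369 to 1710 on continuous arrays), and none of these 19 markers passed. None of the markers measured for cholangiocytes (5), lymphocytes (7) and neutrophils (6) passed either, and of 6 erythroid markers 1 was measured. The part of these shifts in the results below was not tested. In whole liver RNA, fewer cells of a type and less RNA per cell cannot be told apart. Fah itself, mutated in all mice, averaged 7.66 ± 0.23 after withdrawal and 7.82 ± 0.42 with continuous NTBC (SD, n = 3 each, adjusted p = 0.718 in limma).

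Sequence upstream of the annotated start is shown for the 2 pairs of neighbouring genes on which the results turn: Aox1 and Aox3, which went opposite ways, and Aldh1a1 and Aldh1a7, which rose together. RefSeq promoter windows (GRCm38.p6, 250 bases before to 50 after an annotated start) were found for 8 of the 9 genes, 10 windows in all, and none for Fmo1. The stretches below end at the annotated start, or where the annotated gene begins if that comes earlier, and are written 5′ to 3′ on the gene's strand. Capitals mark every match, on either strand, to TGACNNNGC (the core of the antioxidant response element), TGANTCA (the AP-1 site), TATAAA (the TATA box), AGGTCA (nuclear receptor half-site) and CCAAT.
Aox1, chr1:58029719-58029808, plus strand: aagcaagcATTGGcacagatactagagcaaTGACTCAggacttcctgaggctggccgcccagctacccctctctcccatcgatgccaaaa
Aox3, chr1:58112886-58113134, plus strand: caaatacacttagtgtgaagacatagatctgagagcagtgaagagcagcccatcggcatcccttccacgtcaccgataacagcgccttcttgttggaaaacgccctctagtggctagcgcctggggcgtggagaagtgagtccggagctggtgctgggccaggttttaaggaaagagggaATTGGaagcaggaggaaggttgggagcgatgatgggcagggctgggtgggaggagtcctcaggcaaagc
Aldh1a1, chr19:20601718-20601967, plus strand: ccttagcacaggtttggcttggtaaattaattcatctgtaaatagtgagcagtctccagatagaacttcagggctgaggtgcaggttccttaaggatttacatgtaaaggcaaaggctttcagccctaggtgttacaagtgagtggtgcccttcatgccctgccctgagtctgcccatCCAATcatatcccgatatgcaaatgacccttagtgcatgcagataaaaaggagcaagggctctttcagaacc
Aldh1a7, chr19:20727557-20727806, minus strand: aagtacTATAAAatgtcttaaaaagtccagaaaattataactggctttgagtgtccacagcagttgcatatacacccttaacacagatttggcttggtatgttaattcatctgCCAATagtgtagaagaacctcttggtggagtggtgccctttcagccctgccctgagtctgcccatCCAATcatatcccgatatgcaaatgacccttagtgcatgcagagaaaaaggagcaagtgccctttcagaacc
Over the 100 bases before the start, compared position by position without gaps, Aldh1a1 and Aldh1a7 had 94 identical bases, and both hold a CCAAT match there. The other 44 pairs of windows had 15 to 35. In the Aox1 window the 100 bases compared lie beyond the stretch shown, past the point where the annotated gene begins. For Aldh1a1 this is 1 of 2 annotated starts, the one whose window resembles that of Aldh1a7.

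Counted over whole windows, 7 of the 10 held CCAAT, which 37.4% of 32851 RefSeq windows of the same length held. The AP-1 letters were in 2 of the 10 (Aox1 and the other Aldh1a1 start) and in 7.81% of all windows. TATAAA was in 2 (Aldh1a7 and Fmo5) against 13.6%, and AGGTCA in 2 (Adh4 and 1 start of Fmo2) against 16.3%. None of the 10 held TGACNNNGC, which 12.4% of all windows held. These matches describe letters in these windows and say nothing of which factor binds.

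The 2 aldehyde oxidases moved in opposite directions. Aox3, the main aldehyde oxidase of mouse liver, read 9.33, 9.59 and 9.64 on withdrawal replicates 1 to 3, against 12.01, 11.54 and 11.73 on continuous replicates 1 to 3. Every withdrawal array lay at least 1.90 log2 units below every continuous array. Mean signals were 9.52 ± 0.17 after withdrawal and 11.76 ± 0.24 with continuous NTBC (SD, n = 3 each), a log2 change of -2.24 (SE 0.17) that makes Aox3 4.72-fold lower (limma adjusted p = 4.37e-05).

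Aox1, the other aldehyde oxidase that mouse liver makes, moved the other way. It read 10.86, 10.95 and 10.74 on the withdrawal arrays, against 9.60, 9.22 and 9.42 on the continuous arrays. The groups were 1.14 apart at their nearest arrays. Aox1 averaged 10.85 ± 0.11 after withdrawal and 9.41 ± 0.19 with continuous NTBC (SD, n = 3 each), and was 2.71-fold higher (log2 change 1.44, SE 0.16, limma adjusted p = 3.65e-04).

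Within each array, the log2 signal of Aox1 minus that of Aox3 was 1.33 ± 0.22 after withdrawal and -2.35 ± 0.06 with continuous NTBC (SD, n = 3 each). Only the shift of this difference, 3.68, is interpretable, because 2 probe sets do not share a scale. The exact permutation test over arrays, two-sided, gave p = 0.1, the smallest that 3 against 3 allows, and 0.25 after adjustment over the 5 pairs of genes compared. No arrangement of these 6 arrays could reach the threshold.

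Aox1 and Aox3 lie next to each other on chromosome 1, followed by Aox4 and Aox2. Aox4, known from the Harderian gland and skin, averaged 3.71 ± 0.18 after withdrawal and 3.90 ± 0.13 with continuous NTBC, and Aox2, known from nasal mucosa, averaged 4.39 ± 0.19 after withdrawal and 4.50 ± 0.09 with continuous NTBC (SD, n = 3 each). Both sat well below the array medians and neither passed. Changes in this row of 4 genes were thus seen at its first 2, and the low signals of the other 2 can hide a change.

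**Figure D2:**
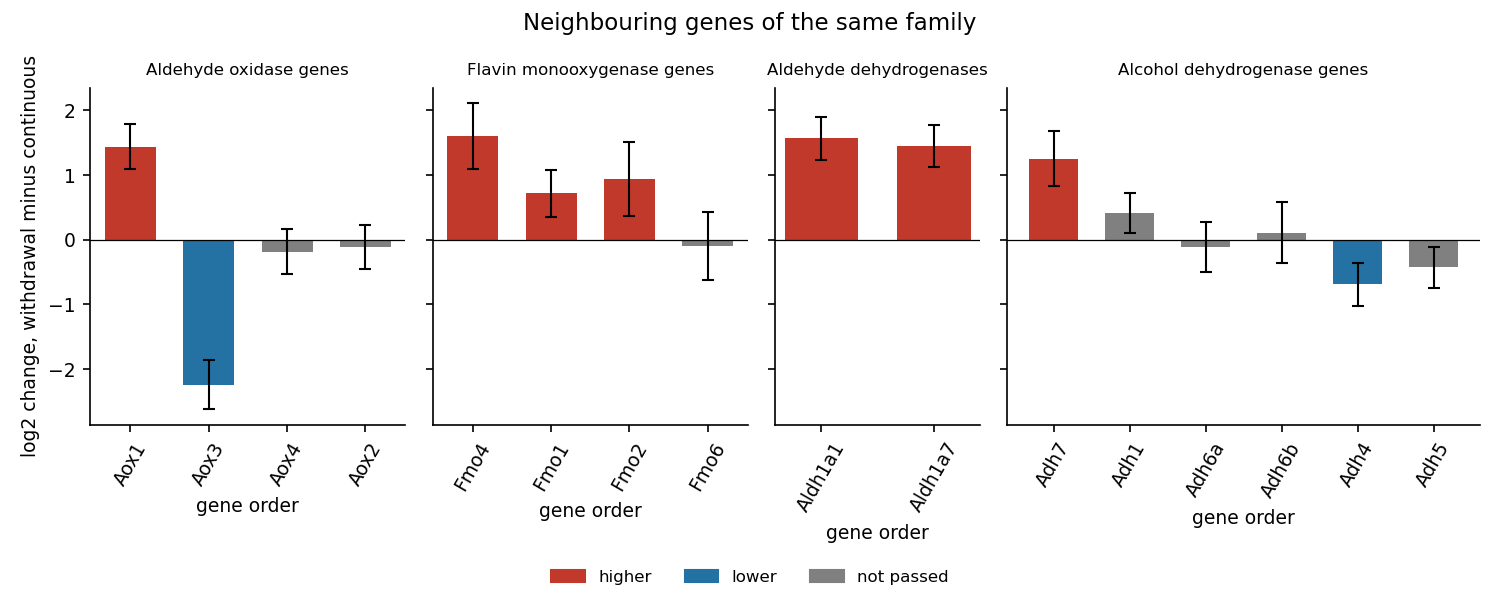
Log2 change, withdrawal minus continuous (vertical axis, bars from 0, with 95% intervals), of family genes that are neighbours, in their order along the chromosome in RefSeq GRCm38.p6. Red bars passed as higher, blue as lower and grey did not pass. Aox1 (1.44) and Aox3 (-2.24) are adjacent and opposite, while Fmo4, Fmo1 and Fmo2 in one cluster and Aldh1a1 and Aldh1a7 in another are all higher.

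Among other enzymes that need the molybdenum cofactor, and genes that make it, Suox, Mtarc1 and Gphn were lower and only Mocs2 higher. All 13 genes of the list, aldehyde oxidases included, were measured. Of these, 2 were higher (Aox1 and Mocs2), 4 lower (Aox3, Suox, Mtarc1 and Gphn) and 7 not passed, with a median log2 change of 0.06. Suox, the sulfite oxidase of mitochondria, averaged 7.61 ± 0.33 after withdrawal and 8.61 ± 0.12 with continuous NTBC (SD, n = 3 each, 2-fold lower, limma adjusted p = 0.00780). It passed under all 14 alternative fits, but its unrounded change fell just short of a 2-fold minimum.

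The other 3 genes outside the aldehyde oxidases passed narrowly. Mtarc1, an amidoxime-reducing enzyme of the mitochondrial outer membrane, had a log2 change of -0.65 (adjusted p = 0.0302), and its call was lost without any 1 array (limma adjusted p from 0.0502 to 0.104). Gphn, gephyrin, which inserts molybdenum into the cofactor, had -0.69 (adjusted p = 0.0256), and its call was lost without any 1 array but continuous replicate 2 (adjusted p of the lost calls from 0.0507 to 0.114). Mocs2, which encodes molybdopterin synthase subunits, had 0.58 (adjusted p = 0.0437), and its call was lost without any 1 array but continuous replicate 1 (up to 0.157) and with quantile normalization (0.0538).

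Mtarc1 and Gphn also failed once arrays were centred on their medians (adjusted p = 0.109 and 0.0893). Xdh, xanthine dehydrogenase, the closest relative of the aldehyde oxidases, had a log2 change of 0.32 (95% interval -0.04 to 0.68, adjusted p = 0.272) and did not pass. Mocos, which adds the sulphur that aldehyde oxidases and Xdh need on their cofactor, had 0.65 (adjusted p = 0.0636) and passed under 7 of 14 alternatives. Mtarc2 had 0.37 and did not pass (adjusted p = 0.135).

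Aldehyde dehydrogenases held the largest rise among the 9 genes. Aldh1a1, the cytosolic enzyme that makes retinoic acid from retinaldehyde and also clears aldehydes of lipid peroxidation, read 13.63, 13.67 and 13.60 on the withdrawal arrays, against 11.86, 12.19 and 12.14 on the continuous arrays. The withdrawal arrays agree within 0.07 of each other, and the nearest continuous array lay 1.41 below them. Aldh1a1 averaged 13.63 ± 0.04 after withdrawal and 12.06 ± 0.18 with continuous NTBC (SD, n = 3 each), and was 2.97-fold higher (log2 change 1.57, SE 0.15, limma adjusted p = 1.64e-04).

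Aldh1a7, a rodent paralogue of Aldh1a1, rose as well. Its signals were 10.80, 10.82 and 10.61 on the withdrawal arrays, against 9.27, 9.24 and 9.37 on the continuous arrays, with a gap of 1.24 between groups. The means were 10.74 ± 0.12 after withdrawal and 9.29 ± 0.07 with continuous NTBC (SD, n = 3 each), a 2.73-fold difference (log2 change 1.45, SE 0.14, limma adjusted p = 2.09e-04). The change of Aldh1a1 exceeded that of Aldh1a7 by 0.12, with overlapping groups (exact permutation p = 0.4 over arrays, two-sided, and 0.5 adjusted over 5 pairs). The 2 genes are neighbours on chromosome 19 and closely similar, so their transcripts may share probes, and the value of either alone is uncertain to that extent.

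Aldh3a2, the microsomal fatty aldehyde dehydrogenase, was the third aldehyde dehydrogenase to rise. It read 10.87, 10.38 and 10.53 on the withdrawal arrays, against 9.42, 9.47 and 9.39 on the continuous arrays. The means were 10.59 ± 0.25 after withdrawal and 9.43 ± 0.04 with continuous NTBC (SD, n = 3 each), and Aldh3a2 was 2.24-fold higher (log2 change 1.17, SE 0.16, limma adjusted p = 0.00166). Its second probe set gave a smaller difference that did not pass.

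That probe set read 9.49, 9.18 and 9.50 after withdrawal, against 8.50, 9.09 and 8.64 with continuous NTBC, and continuous replicate 2 came within 0.09 of the lowest withdrawal array. Its log2 change was 0.65 (SE 0.19, adjusted p = 0.0586). With both probe sets averaged, Aldh3a2 passed with a log2 change of 0.91 (adjusted p = 0.00387).

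Across the aldehyde dehydrogenase superfamily most genes did not pass. All 21 genes of the list were measured, with 5 higher, 2 lower and 14 not passed, and a median log2 change of -0.11. Of all genes 11.0% passed, and of the probe sets with a mean signal above the median, tested alone, 23.3%. Beside the 3 described, Aldh1b1, a mitochondrial enzyme for acetaldehyde and retinaldehyde, averaged 8.95 ± 0.38 after withdrawal and 7.59 ± 0.53 with continuous NTBC (SD, n = 3 each, log2 change 1.36, limma adjusted p = 0.0115). Aldh3b1, which oxidises lipid-derived aldehydes, averaged 7.05 ± 0.30 after withdrawal and 5.97 ± 0.09 with continuous NTBC (SD, n = 3 each, log2 change 1.08, adjusted p = 0.00370). Without withdrawal replicate 2, Aldh1b1 no longer passed (adjusted p = 0.0546).

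The 2 lower genes serve folate and amino acid metabolism. Aldh1l1, the cytosolic formyltetrahydrofolate dehydrogenase, averaged 10.46 ± 0.21 after withdrawal and 11.31 ± 0.22 with continuous NTBC (SD, n = 3 each, log2 change -0.85, limma adjusted p = 0.0129). Aldh7a1, antiquitin, of lysine breakdown, averaged 10.01 ± 0.13 after withdrawal and 10.65 ± 0.06 with continuous NTBC (SD, n = 3 each, log2 change -0.64, adjusted p = 0.0198). Aldh1l1 no longer passed without withdrawal replicate 1 (adjusted p = 0.0738), nor Aldh7a1 without withdrawal replicate 1 (0.0937), withdrawal replicate 3 (0.0655) or continuous replicate 3 (0.0519) and with median centring (0.0808).

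Well-known relatives of Aldh1a1 did not pass. Aldh2, the mitochondrial enzyme that clears acetaldehyde, averaged 12.23 ± 0.04 after withdrawal and 12.13 ± 0.08 with continuous NTBC (SD, n = 3 each), with a log2 change of 0.10 (95% interval -0.21 to 0.40, limma adjusted p = 0.717), and the sign turned to -0.27 when its probe sets were averaged. Aldh3a1, the cytosolic relative next to Aldh3a2, averaged 4.74 ± 0.47 after withdrawal and 4.96 ± 0.22 with continuous NTBC (SD, n = 3 each), below the array medians, and did not pass (adjusted p = 0.614). Aldh1a2 and Aldh1a3, the other retinaldehyde dehydrogenases, likewise had low signals, with log2 changes of -0.06 and -0.11.

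**Figure D3:**
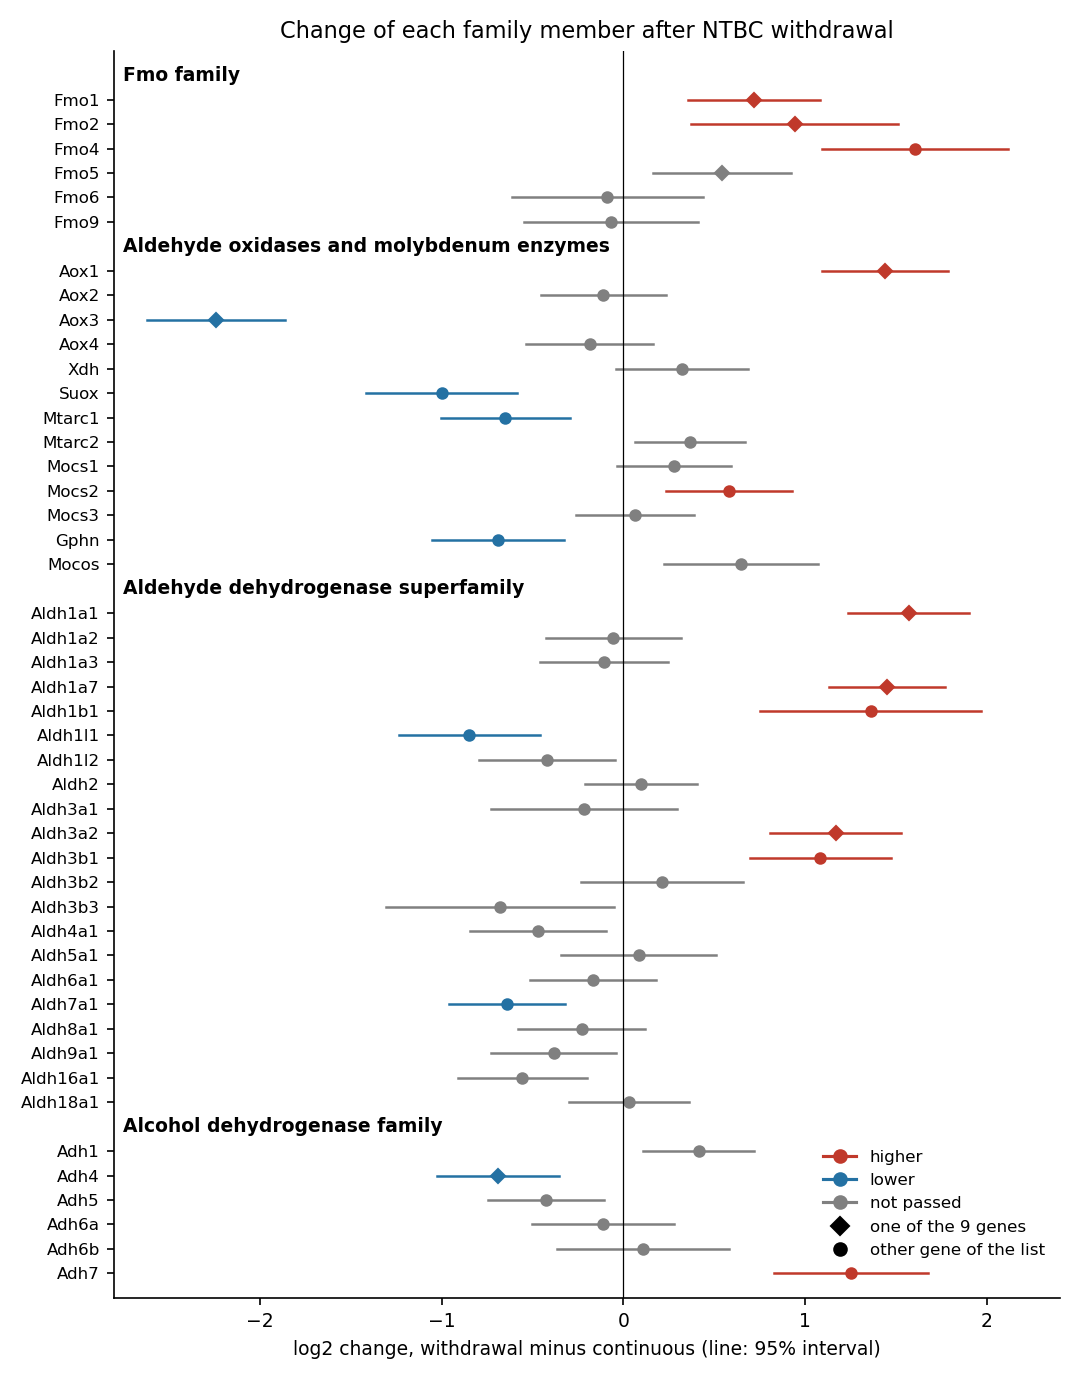
Log2 change, withdrawal minus continuous (horizontal axis), with its 95% interval for each measured gene of 4 lists, coloured by limma call. Diamonds mark the 9 genes and circles the other genes of their lists. Rises that passed lie at Fmo1, Fmo2 and Fmo4, at Aox1 and Mocs2, at 5 of 21 aldehyde dehydrogenases and at Adh7. Aox3 (-2.24) lies farthest to the left.

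Of the 3 flavin monooxygenases 2 passed, both as higher. Fmo1, a broad oxygenase of nitrogen and sulphur compounds, read 10.43, 10.49 and 10.26 on the withdrawal arrays, against 9.79, 9.42 and 9.82 on the continuous arrays. It averaged 10.39 ± 0.12 after withdrawal and 9.68 ± 0.22 with continuous NTBC (SD, n = 3 each), and was 1.64-fold higher (log2 change 0.72, SE 0.16, limma adjusted p = 0.0210). With 1 array left out the change was 0.59 to 0.79, and the call did not stand without withdrawal replicate 1 (adjusted p = 0.10), withdrawal replicate 2 (0.0919) or continuous replicate 2 (0.0708).

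Fmo2, best known as the flavin monooxygenase of lung, had the lowest signals of the 9 genes and the widest spread. It read 7.77, 7.31 and 7.09 on the withdrawal arrays, against 6.96, 5.98 and 6.40 on the continuous arrays, and the nearest arrays of the groups differed by 0.13. The means were 7.39 ± 0.35 after withdrawal and 6.45 ± 0.49 with continuous NTBC (SD, n = 3 each), and Fmo2 was 1.92-fold higher (log2 change 0.94, SE 0.26, limma adjusted p = 0.0457). The call stood without continuous replicate 1 (adjusted p = 0.0107) but was lost without any other 1 array, with adjusted p from 0.0504 to 0.187, and with quantile normalization (0.0683).

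Fmo5, which acts on ketones by inserting oxygen next to the carbonyl group, read 11.68, 11.70 and 11.43 on the withdrawal arrays, against 11.14, 10.78 and 11.26 on the continuous arrays. The groups were separate by 0.17 and the means were 11.60 ± 0.15 after withdrawal and 11.06 ± 0.25 with continuous NTBC (SD, n = 3 each). The log2 change of 0.54 (SE 0.17, 95% interval 0.16 to 0.92) had a limma adjusted p of 0.0796 and did not pass. It passed without dim probe sets (0.0388), with array weights (0.0309) and with the trend and robust options (0.0278). Fmo5 did not pass in any fit with 1 array left out.

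Whether the 3 changed unequally could not be shown with 6 arrays. Fmo1 exceeded Fmo5 by 0.17 in log2 change, with separate groups (exact permutation p = 0.1, two-sided, 0.25 adjusted over 5 pairs). Fmo2 exceeded Fmo1 by 0.23 (exact permutation p = 0.5, 0.5 adjusted) and Fmo5 by 0.40 (exact permutation p = 0.3, 0.5 adjusted), with overlapping groups.

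Of the 6 genes of the family that were analysed, 3 were higher, none lower and 3 not passed. The third that rose was Fmo4, a family member with few known substrates. It averaged 7.22 ± 0.44 after withdrawal and 5.61 ± 0.27 with continuous NTBC (SD, n = 3 each), with groups 0.85 apart, and was 3.04-fold higher (SE 0.23 on the log2 scale, limma adjusted p = 0.00196). The Fmo4 call held under all 14 alternatives. Fmo4, Fmo1 and Fmo2 follow each other on chromosome 1, whereas Fmo5 lies on chromosome 3. Fmo6 and Fmo9 had signals between 4.12 and 4.99 with overlapping groups.

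Adh4, the class II alcohol dehydrogenase of liver, which also oxidises retinol, was the second of the 9 genes to fall. It read 9.75, 9.55 and 9.41 on the withdrawal arrays, against 10.32, 10.18 and 10.28 on the continuous arrays. The means were 9.57 ± 0.17 after withdrawal and 10.26 ± 0.07 with continuous NTBC (SD, n = 3 each), and Adh4 was 1.61-fold lower (log2 change -0.69, SE 0.15, limma adjusted p = 0.0173). The call was lost with median centring (adjusted p = 0.0619) and without withdrawal replicate 2 (0.0707), withdrawal replicate 3 (0.0602) or continuous replicate 3 (0.0505).

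The alcohol dehydrogenase genes form one row on chromosome 3 and did not move as one. Of 6 measured, Adh7 was higher, Adh4 was lower and 4 did not pass, with a median log2 change of -0.002. Adh7, the class IV enzyme with high activity on retinol, read 6.95, 6.89 and 6.76 on the withdrawal arrays, against 6.02, 5.35 and 5.47 on the continuous arrays (log2 change 1.25, SE 0.19, limma adjusted p = 0.00265), and its call held under all 14 alternatives. The groups did not overlap for Adh1, the main ethanol-oxidising enzyme (log2 change 0.41, adjusted p = 0.0957), or for Adh5, which oxidises formaldehyde bound to glutathione (-0.43, adjusted p = 0.0969), but neither passed. Adh1 passed under 4 of 14 alternatives and Adh5 under 3, with no change of sign.

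Since Aldh1a1, Adh4 and Adh7 act on retinoids, the other genes of retinoid handling were read as well. Of 19 listed, 17 were measured, with 2 higher, 2 lower and 13 not passed. For comparison, 11.0% of all genes passed, and 23.3% of the probe sets with a mean signal above the median. The median log2 change of the list was -0.17, against -0.08 over all probe sets. Bco1, which cleaves beta-carotene to retinaldehyde, averaged 8.36 ± 0.21 after withdrawal and 6.16 ± 0.29 with continuous NTBC (SD, n = 3 each, 4.57-fold higher, limma adjusted p = 8.37e-05). Rdh16, a retinol dehydrogenase, averaged 6.30 ± 0.14 after withdrawal and 8.22 ± 0.36 with continuous NTBC (SD, n = 3 each, log2 change -1.93, adjusted p = 2.40e-04).

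Dhrs9, a short-chain dehydrogenase that oxidises retinol, was 2.21-fold higher (adjusted p = 0.00985), a call lost without withdrawal replicate 1 (0.0503). Stra6l, a receptor for retinol-binding protein, was 1.85-fold lower (limma adjusted p = 0.00655). Cyp26a1 and Rarb, genes that retinoic acid is known to induce, had log2 changes of -0.17 (95% interval -0.94 to 0.59) and 0.46 (-0.04 to 0.96) and did not pass. Among the enzymes of this list that form retinaldehyde, Bco1 and Dhrs9 were higher and Rdh16 was lower, which describes these genes only. Rdh5 (log2 change -0.12), Rdh7 (-0.38), Rdh10 (0.35) and Rdh11 (-0.28) of the same list did not pass.

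Within each group the same array was lowest for most of the 9 genes. In the withdrawal group, replicate 3 was the lowest of the 3 arrays for 7 of the 9 genes (all but Aox3 and Aldh3a2), where it was lowest for 35.4% of all probe sets and 48.1% of those with a mean signal above the median. In the continuous group, replicate 2 was the lowest for 7 of the 9 (all but Aldh1a1 and Aldh3a2), against 31.6% of all probe sets and 38.1% of those above the median. Fmo1, Fmo2, Fmo5, Aox1, Aldh1a7 and Adh4 followed both patterns.

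The genes with the profile nearest to Aldh1a1 over the 6 arrays, by the root mean square difference of per-array deviations from the gene mean among 22179 other genes, were D16Ertd472e (0.0653 log2 units), Cluap1 (0.0723), an intraflagellar transport protein, and Dusp4 (0.0881), a phosphatase of MAP kinases. Those nearest to Aox3 were Aspdh (0.147), aspartate dehydrogenase domain containing, Nudt7 (0.160), a peroxisomal coenzyme A hydrolase, and F7 (0.176), coagulation factor VII. These are descriptions over 6 arrays that share the group difference, and none of the 6 is one of the 9 genes.

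Signs were the same for all 9 genes under every alternative setting, and 5 of them (Aox1, Aox3, Aldh1a1, Aldh1a7 and Aldh3a2) passed under all 14. These 5 are also the genes that passed and changed at least 2-fold, as did 3.42% of all probe sets. The median log2 change over all probe sets was 0.02 with arrays centred on their medians, against -0.08 as deposited, and this shift of 0.10 added to each rise and took from each fall. Of all calls 77.2% were then higher, against 66.0% as deposited.

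**Figure D4:**
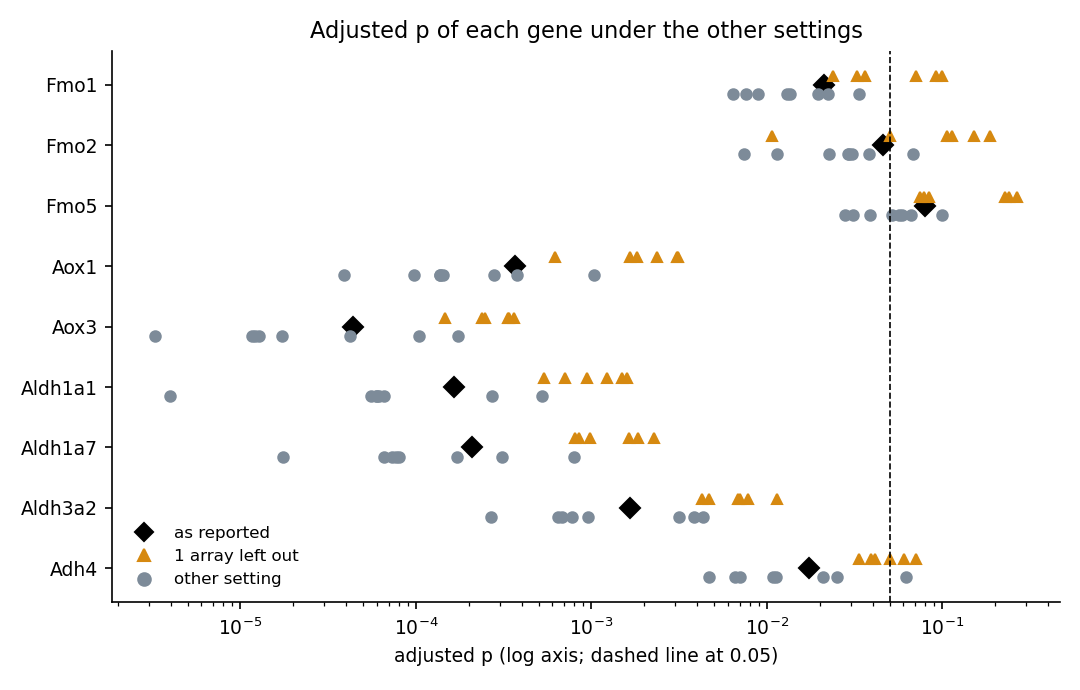
Limma adjusted p (horizontal log axis, dashed line at 0.05) of each of the 9 genes as reported (diamonds), with 1 array left out (triangles) and under the other 8 settings (circles). Aox1, Aox3, Aldh1a1, Aldh1a7 and Aldh3a2 lie left of the line throughout, the highest value being 0.0114 for Aldh3a2, while Fmo1, Fmo2, Fmo5 and Adh4 cross it.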

How the data were processed

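Total liver RNA (100 ng) was amplified with a whole-transcript kit and hybridised with biotin label, per the labels' protocols. The authors deposited linear normalized intensities, 1 for each probe set on each array, and used Transcriptome Analysis Console, per the submitters' processing notes. The sources used here do not give its version, the background correction or the normalization. All deposited intensities (100%) were powers of 2 with 2-decimal exponents within 0.006, so log2 restored the authors' scale. Between 0.748% and 1.80% of probe sets had identical values in any 2 arrays.

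Log2 values were fitted without filter or further normalization (limma 3.58.1, R 4.3.3, lmFit and eBayes, 4 residual and 10.2 total degrees of freedom). The fit was also run on simulated data with independent noise and far fewer changed probe sets than were called here, and no result rests on that run. Genes were named from the platform annotation, from probe sets with 1 symbol only (23521), of which 23328 matched the RefSeq table (GRCm38.p6) by identifier. The array's build was not given, so gene positions are stated as order only. All genes of the lists could be named, and for the members with the largest rise and fall the 3 nearest profiles. Members and lists (5 lists, 66 entries) were chosen with earlier results of these data known. The motifs searched were chosen during the work. The alternatives tried were quantile normalization, median centring, leaving out dim probe sets, the replicate block, array weights, probe sets with 1 symbol only, trend and robust moderation, averaging probe sets by gene, a 2-fold minimum and each array left out.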

Additional observations from a re-analysis of the deposited data

How the results depend on the processing

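Signs of the 9 genes held under all alternatives, and raising signals to the lower quartile of their array changed none of them. Over all probe sets (2139 higher, 1102 lower) array weights gave 3339 and 2249, a 2-fold minimum 748 and 430, and median centring 708 lower, and leaving out 1 array gave 935 to 2629 higher and 519 to 1581 lower. Among the 9 genes (6 higher, 2 lower) the lower count was 1 with median centring and with a 2-fold minimum, and 1 to 2 with 1 array left out, where the higher count was 4 to 6. With 1 array left out, the Fmo list gave 1 to 3 higher, the molybdenum list 1 to 3 higher and 2 to 3 lower, the aldehyde dehydrogenases 0 to 3 lower, the alcohol dehydrogenases 0 to 1 lower and the retinoid list 1 to 2 higher. Without withdrawal replicate 1 the Fmo list had 1 higher (also without withdrawal replicate 2 or continuous replicate 2), the aldehyde dehydrogenases 0 lower and the retinoid list 1 higher. Leaving out withdrawal replicate 1 left 1454 probe sets past the threshold in place of 3241, leaving out withdrawal replicate 2 left 1795, and leaving out continuous replicate 2 left 2078.

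With a 2-fold minimum the counts were 1 higher for the Fmo list, 1 higher and 1 lower for the molybdenum list, 0 lower for the aldehyde and for the alcohol dehydrogenases, and 1 lower for the retinoid list. The molybdenum list had 1 higher with quantile normalization and 4 with trend and robust, and 2 lower with median centring. Aldehyde dehydrogenases had 5 lower with quantile normalization, 1 with median centring and 4 with array weights. Alcohol dehydrogenases had 2 higher with quantile normalization, without dim probe sets, with array weights and with trend and robust. They had 2 lower with quantile normalization, without dim probe sets and with trend and robust, and 0 with median centring. Aldh2 turned to -0.27 with its probe sets averaged. The causes were not tested.

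Whether replicate numbers pair the arrays is not settled by these values. Deviations of same-numbered arrays correlated at 0.160, -0.125 and 0.217. Withdrawal replicates 1 and 3 correlated best with the continuous array of the same number, and withdrawal replicate 2 correlated best with continuous replicate 1. With the replicate number as a block 3298 probe sets passed in place of 3241, the molybdenum list had 1 higher, and Mocs2 lost its call (adjusted p = 0.0621). The unequal change of gene pairs kept its sign with any 1 array left out. The 3 arrays per group limit precision, and without background flags low signals (Fmo2, Fmo6, Fmo9, Aox2, Aox4, Aldh3a1) can understate a change.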
